A study of Mus musculus with 2 samples.

Results

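The mouse Dlx genes and their antisense RNAs were examined in the embryonic face. The set was given as a list of 8 genes, namely the 6 protein-coding genes Dlx1 to Dlx6 and the antisense RNAs Dlx1as and Dlx6os1, and was matched by Ensembl identifier in the gene tables. These are 8 of the 43346 Ensembl genes measured. The material was embryonic facial prominence of mouse strain B6NCrl at embryonic day 14.5, with no genotype or treatment in the labels. Total RNA was sequenced in 2 libraries, which form 1 group and carry biological replicate numbers 1 and 2. The labels describe each library as the face of 1 embryo, collected on different days, but also give the sex as pooled and the same donor entry for both. Whether the libraries come from different animals is thus not settled by the labels, and every SD and difference measures the spread between these libraries. Whole faces hold mesenchyme, epithelium, cartilage, bone and nerve together, so fewer cells of a type and less RNA per cell cannot be told apart.

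Dlx proteins are homeodomain transcription factors, related to Distal-less of the fly. The genes lie in convergently transcribed pairs that share enhancers between and around them, and in the pharyngeal arches their nested domains mark positions from the upper to the lower jaw. Dlx1 and Dlx2 act in both jaws, Dlx5 and Dlx6 under endothelin signalling in the lower jaw, and Dlx3 and Dlx4 nearer its tip. Dlx3 is also known from epidermis, hair and tooth, Dlx5 from osteoblasts, and Dlx1, Dlx2, Dlx5 and Dlx6 from the inhibitory neurons of the forebrain. Dlx6os1, also called Evf2, is a long noncoding RNA that starts near an enhancer of the Dlx5 and Dlx6 pair. Dlx1as runs across Dlx1 on the opposite strand.

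Positions are those of mouse build mm10. Dlx1 (chromosome 2, 71528113 to 71533981) and Dlx2 (chromosome 2, 71543408 to 71546754) face each other across 9426 bases. Dlx6 (chromosome 6, 6863334 to 6868568) and Dlx5 (chromosome 6, 6877805 to 6882085) do so across 9236 bases. Dlx3 (chromosome 11, 95120119 to 95125296) and Dlx4 (chromosome 11, 95140447 to 95146263) are separated by 15150 bases. All 3 pairs are annotated tail to tail. Over all annotated forms together, Dlx1as (chromosome 2, 71516454 to 71537891) spans the whole of Dlx1, and Dlx6os1 (chromosome 6, 6820189 to 6871592) spans the whole of Dlx6. As single forms, only Dlx1as-204 and Dlx6os1-201 do so.

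**Figure D1:**
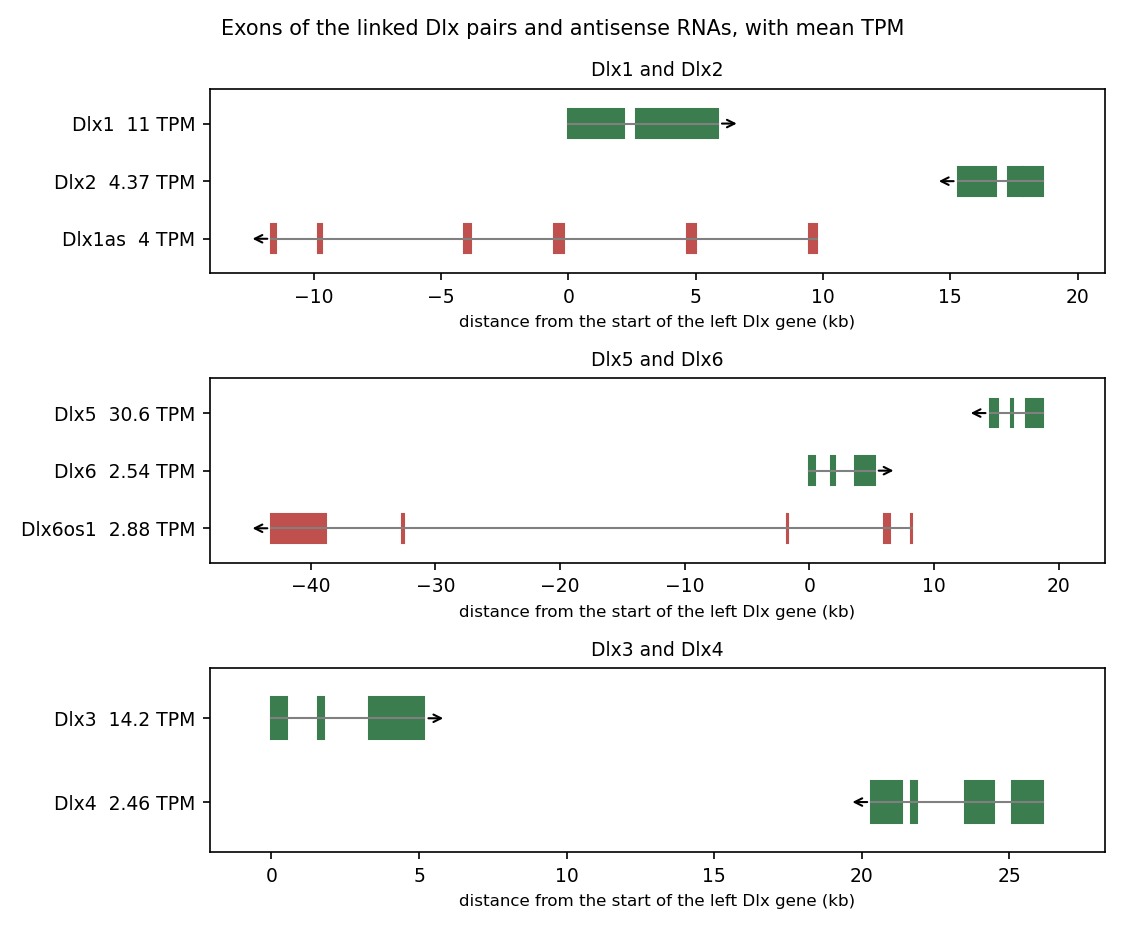
Annotated exons of the 3 linked Dlx pairs and the antisense RNAs Dlx1as and Dlx6os1, merged over transcripts, with distance in kb from the start of the left Dlx gene on the horizontal axis. Green bars are exons of coding genes, red bars exons of antisense RNAs, arrows show the direction of transcription, and the mean TPM over both libraries stands beside each name. Each coding pair points inwards, and each antisense RNA passes over 1 whole Dlx gene.

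The DNA-binding part of each gene is the homeobox, 180 bases that an intron interrupts in every member. The 6 homeoboxes are shown in pairs because the pairs, the counting of reads and the spliced forms described further on all turn on them. They were taken from the GENCODE M21 transcripts, read 5′ to 3′ on the gene's strand. Capitals mark the bases that differ from the linked partner at the same position.
Dlx1: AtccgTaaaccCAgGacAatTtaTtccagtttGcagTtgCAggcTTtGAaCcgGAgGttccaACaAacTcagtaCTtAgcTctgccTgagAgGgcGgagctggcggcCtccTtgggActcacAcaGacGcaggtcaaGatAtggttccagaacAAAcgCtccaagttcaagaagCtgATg
Dlx2: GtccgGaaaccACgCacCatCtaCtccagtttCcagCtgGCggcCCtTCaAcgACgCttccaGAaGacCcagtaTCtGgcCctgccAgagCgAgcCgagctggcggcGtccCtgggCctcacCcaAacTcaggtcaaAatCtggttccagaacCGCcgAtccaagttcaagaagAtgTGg
Dlx5: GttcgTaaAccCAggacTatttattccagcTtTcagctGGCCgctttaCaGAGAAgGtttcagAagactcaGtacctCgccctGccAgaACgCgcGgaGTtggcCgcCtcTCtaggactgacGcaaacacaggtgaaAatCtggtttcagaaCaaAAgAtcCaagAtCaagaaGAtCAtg
Dlx6: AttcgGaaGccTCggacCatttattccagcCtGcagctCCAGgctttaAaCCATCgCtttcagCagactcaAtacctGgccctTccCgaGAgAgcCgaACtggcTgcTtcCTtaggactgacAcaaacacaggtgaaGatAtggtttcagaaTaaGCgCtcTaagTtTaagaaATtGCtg
Dlx3: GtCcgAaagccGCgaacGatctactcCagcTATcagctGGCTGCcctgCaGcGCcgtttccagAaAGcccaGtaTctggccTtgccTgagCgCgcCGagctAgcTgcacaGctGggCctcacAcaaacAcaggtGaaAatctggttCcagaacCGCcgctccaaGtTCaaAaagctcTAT
Dlx4: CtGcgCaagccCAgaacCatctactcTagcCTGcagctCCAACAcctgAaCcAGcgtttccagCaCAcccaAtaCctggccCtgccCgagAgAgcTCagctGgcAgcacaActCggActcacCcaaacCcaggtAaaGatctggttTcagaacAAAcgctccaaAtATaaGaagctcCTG
Dlx1 and Dlx2 differed at 47 of the 180 bases, Dlx5 and Dlx6 at 48, and Dlx3 and Dlx4 at 51. Linked partners were not the most alike by base. Over all 15 pairs of the family the identity ran from 66.1% for Dlx3 and Dlx6 to 81.7% for Dlx2 and Dlx3, which lie on different chromosomes. Over whole transcripts, the longest run of bases shared by any pair of members other than Dlx1 with Dlx1as was 36, between Dlx1 and Dlx6 in opposite orientation. The deposited effective lengths were 99 bases under the transcript lengths, which corresponds to reads of 100 bases. The authors' posterior SD of the gene count, which measures how far reads could be assigned to other genes, was 0 for Dlx2, Dlx3, Dlx4, Dlx5 and Dlx6 in both libraries. Reads of these 5 paralogues were thus assigned without sharing.

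The levels are given in TPM, a transcript abundance that the authors computed per effective length and scaled to the library total, and which can therefore be compared between genes. The libraries held 30919488 expected counts in replicate 1 and 37738872 in replicate 2, and a gene with 2000 bases of effective length received 39.4 and 51.0 counts for each TPM. Intervals are exact Poisson intervals at the 95% level on the rounded count. They cover counting error only, since reads without molecular identifiers are not independent molecules. Means are given ± SD over the libraries (n = 2), and with 2 libraries of 1 group no p-value was computed.

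All 8 members reached 1 TPM in both libraries. Among all protein-coding genes that share was 63.9%, and among all genes annotated as antisense it was 11.6%. Every linked pair thus had both partners above that threshold in each library.

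Dlx5, a regulator of jaw and bone development, had the highest level of the set. It stood at 30.68 TPM in replicate 1 (792 counts, interval 28.6 to 32.9) and 30.47 TPM in replicate 2 (1018 counts, interval 28.6 to 32.4). The replicates overlapped almost fully, with a mean of 30.6 ± 0.148 TPM. Dlx5 supplied 46.5% and 47.4% of the summed TPM of the 6 Dlx genes, which was 65.97 in replicate 1 and 64.35 in replicate 2.

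Dlx3 followed at 13.06 TPM (646 counts, interval 12.1 to 14.1) in replicate 1 and 15.36 TPM (982 counts, interval 14.4 to 16.4) in replicate 2. Its counting intervals did not overlap between the libraries. Dlx1 had 12.17 TPM (398.41 counts, interval 10.99 to 13.4) and 9.84 TPM (510.37 counts, interval 9.00 to 10.7), higher in replicate 1, again without overlap of the counting intervals. The authors' own intervals for Dlx1, which also cover the assignment of reads, were 10.4 to 13.8 and 8.57 to 11.4 TPM and did overlap. Without length the direction turned, with 13.3 CPM in replicate 1 and 14.3 CPM in replicate 2. CPM is the expected count scaled to the total of the Ensembl genes, 29924885 and 35690824 counts.

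The remaining coding genes were lower. Dlx2, which acts with Dlx1 in the upper jaw, had 4.58 TPM (201 counts) and 4.16 TPM (243 counts). Dlx6, the partner of Dlx5, had 2.99 TPM (71 counts) and 2.1 TPM (73 counts). Dlx4, the partner of Dlx3, had 2.49 TPM (97 counts) and 2.42 TPM (120 counts). For each of these 3 genes the counting intervals of the libraries overlapped.

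Of the antisense RNAs, Dlx1as had 5.26 TPM in replicate 1 (53.59 counts, interval 3.98 to 6.92) and 2.74 TPM in replicate 2 (32.63 counts, interval 1.91 to 3.89). Its level in replicate 2 lay under the interval of replicate 1. The authors' own intervals, which also cover the assignment of reads, were 3.98 to 7.25 and 1.93 to 4.26 TPM and did overlap. Dlx6os1 had 3.01 TPM (252 counts) and 2.76 TPM (298 counts), with overlapping intervals. A separate annotation with the same symbol, a short RNA of 146 bases, had 1 count in replicate 1 and 0 in replicate 2 and was not added to it.

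**Figure D2:**
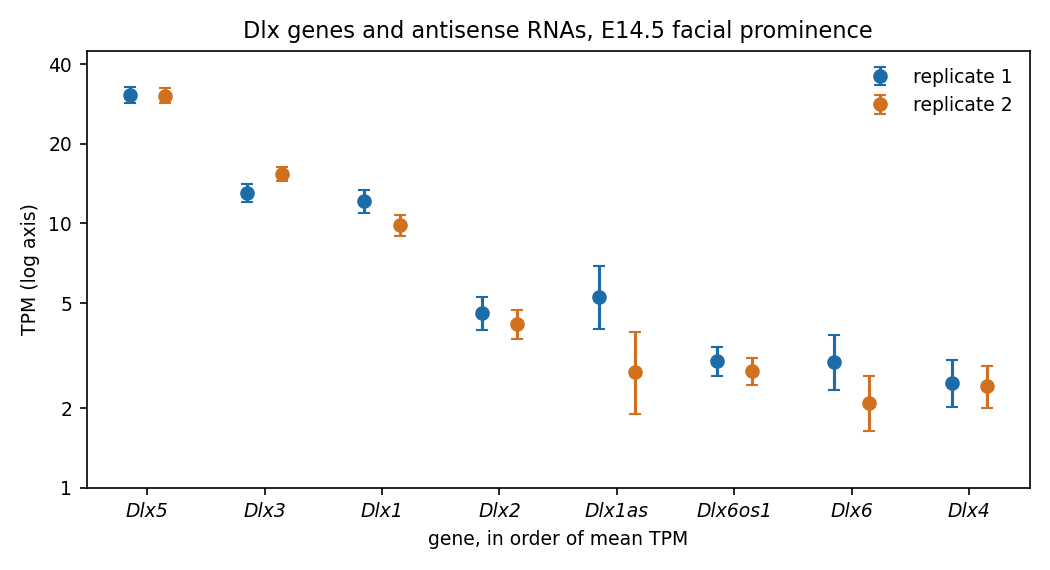
TPM of each member in each library on a log axis, in order of the mean, with exact Poisson intervals of the counts as bars. Dlx5 lies above all others in both replicates, Dlx3 and Dlx1 form the next level, and the other 5 genes lie between 2.1 and 5.26 TPM.

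By mean TPM the order was Dlx5, Dlx3, Dlx1, Dlx2, Dlx1as, Dlx6os1, Dlx6 and Dlx4. Of the 7 neighbours in that order, only Dlx5 over Dlx3 and Dlx1 over Dlx2 were separated in both the values and the counting intervals of the libraries. Dlx3 lay above Dlx1 in each library, and their intervals overlapped in replicate 1 but not in replicate 2. From Dlx2 down to Dlx4 no neighbours differed beyond their spread. The paralogue groups that cross the pairs are Dlx2, Dlx3 and Dlx5 on the one side and Dlx1, Dlx4 and Dlx6 on the other. The former summed to 48.32 and 49.99 TPM and the latter to 17.65 and 14.36 TPM.

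Against the 13717 protein-coding genes at 1 TPM or more in both libraries, Dlx5 stood at percentile 66.3 of mean TPM, Dlx3 at 44.6, Dlx1 at 37.9 and Dlx2 at 18.0. Dlx6 at 9.46 and Dlx4 at 9.09 were among the lower expressed genes. Among the 240 antisense genes at that threshold the antisense members ranked higher, Dlx1as at percentile 74.6 and Dlx6os1 at 60.4.

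Within the pairs, 1 partner dominated each time when all transcripts were counted. Dlx5 exceeded Dlx6 by a TPM ratio of 10.3 in replicate 1 (exact conditional binomial interval 8.04 to 13.3) and 14.5 in replicate 2 (interval 11.4 to 18.7). Dlx3 exceeded Dlx4 by 5.24 (interval 4.23 to 6.56) and 6.35 (interval 5.25 to 7.74). Dlx1 exceeded Dlx2 by 2.66 (interval 2.23 to 3.16) and 2.37 (interval 2.02 to 2.77). Dlx5 and Dlx6 were thus the most unequal pair and Dlx1 and Dlx2 the least, in each library. The order within the first pair depended on the transcripts counted: over transcripts annotated as protein coding, Dlx1 over Dlx2 was 0.974 in replicate 1 and 0.553 in replicate 2. Over such transcripts Dlx5 over Dlx6 averaged 16.9 and Dlx3 over Dlx4 averaged 8.56, both in the same direction as before.

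**Figure D3:**
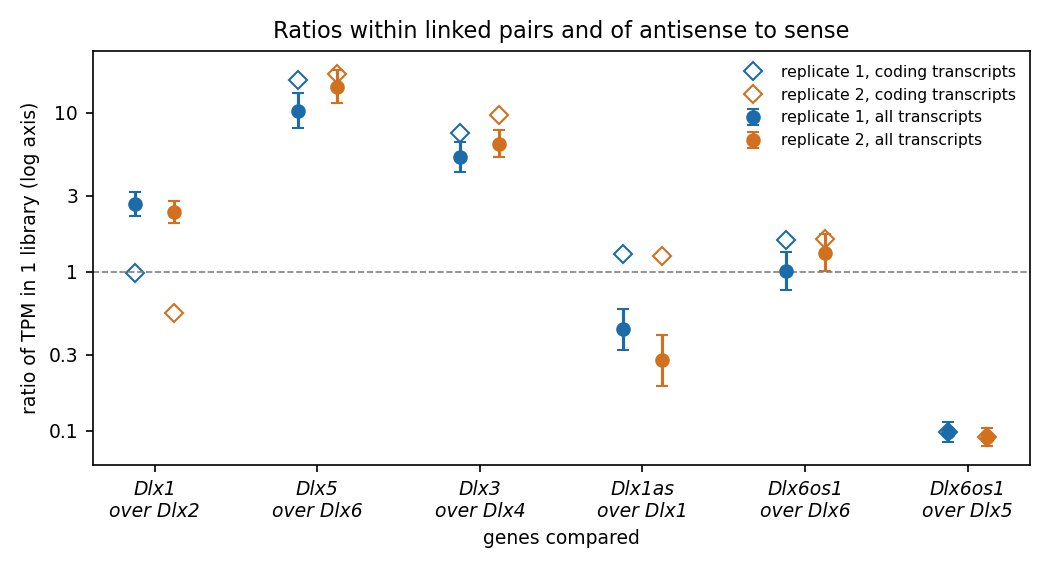
Ratio of TPM between linked genes and between antisense RNA and sense gene within each library, on a log axis with a dashed line at 1. Filled circles use all transcripts, with exact counting intervals, and open diamonds use only the protein-coding transcripts of the coding genes. Dlx5 over Dlx6 is highest at 10.3 and 14.5, and Dlx1 over Dlx2 and Dlx1as over Dlx1 cross the line when only coding transcripts are used.

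By the authors' estimates, the transcripts of Dlx1 were unusual in their makeup. Those annotated as retained introns made up 66.3% of the TPM of Dlx1 in replicate 1 and 77.6% in replicate 2 (71.9% ± 8.0). The median over 5432 protein-coding genes that have such a transcript and reach 1 TPM in both libraries was 6.26%, with quartiles of 1.87% and 17.1%. Of those genes 57 lay above Dlx1, which stood at percentile 98.9, and 4.16% were over 50%. Dlx6 had 26.8% in such a transcript (percentile 85.2), resting on 6.08 and 2.64 counts, and Dlx2 had 6.32% (percentile 50.2).

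Only 1 of the Dlx1 forms keeps the intron that lies inside the homeobox. Dlx1-203 holds all 1107 bases of intron 2 (chromosome 2, 71531157 to 71532263) and was the main form, with 37.62% of the gene's TPM in replicate 1 (296.68 counts) and 43.42% in replicate 2 (357.73 counts). The ends of that intron are shown because they mark where the homeobox of this form is broken. Capitals are the first 20 and last 20 bases of the intron, read from the GENCODE M21 transcript that keeps it, and lower case is the neighbouring exon.
Dlx1 intron 2, start: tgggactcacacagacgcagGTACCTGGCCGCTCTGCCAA
Dlx1 intron 2, end: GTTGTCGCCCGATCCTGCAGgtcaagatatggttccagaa
The intron begins with GT and ends with AG. Dlx1-206, the other form of this class, begins inside intron 1 and has intron 2 spliced out, and took 28.65% and 34.17% of the TPM. Both hold every base of the homeobox. Dlx1-203 begins 1834 bases after Dlx1-201, and intron 2 is 32.7% of the bases of Dlx1-203. Counts assigned to it thus need not lie in the intron. Among the Dlx1 forms, only Dlx1-201 and Dlx1-203 reach the end of the gene, so Dlx1 reads there could go to these forms only. Whether unspliced RNA or RNA of the opposite strand entered the counts of Dlx1-203 was not tested.

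The forms annotated as protein coding behaved differently. Dlx1-205, with 28.98% in replicate 1 (41.94 counts) and 15.58% in replicate 2 (23.55 counts), and Dlx1-202, with 7.11 counts and 0, end before the homeobox and hold 0 of its 180 bases. The full-length form, Dlx1-201, was given 0.05 TPM (4.28 counts) in replicate 1 and 0.67 TPM (68.77 counts) in replicate 2. Of the TPM in forms with the whole homeobox, 56.4% in replicate 1 and 51.4% in replicate 2 was assigned to the form that keeps the intron. These forms summed to 8.12 and 8.30 TPM (8.21 ± 0.127), and the forms without the whole homeobox to 4.05 and 1.53 TPM. By these estimates, the fall of Dlx1 from 12.17 to 9.84 TPM was assigned to the latter forms. Whether it lay there is not settled, since the authors' intervals for Dlx1-205 and Dlx1-202 overlapped between the libraries. The fall itself depended on length, as Dlx1 rose from 13.3 to 14.3 CPM while its effective length went from 1660 to 2035 bases. Counted over forms with the whole homeobox, Dlx1 over Dlx2 was 1.77 and 1.99. The forms overlap, and the authors' deposited TPM intervals, whose level is not given in the sources used here, show how far reads could be divided among them. For Dlx1-203 they ran from 3.86 to 4.98 TPM in replicate 1 and from 3.65 to 4.65 in replicate 2, and for Dlx1-206 from 2.11 to 4.64 and from 2.09 to 4.32. Both were thus estimated well above 0 in each library. For Dlx1-205 they overlapped between the libraries, at 1.98 to 4.62 and 0.445 to 2.20 TPM, and for Dlx1-201 they did not, at 0.00289 to 0.247 and 0.423 to 0.935 TPM.

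**Figure D4:**
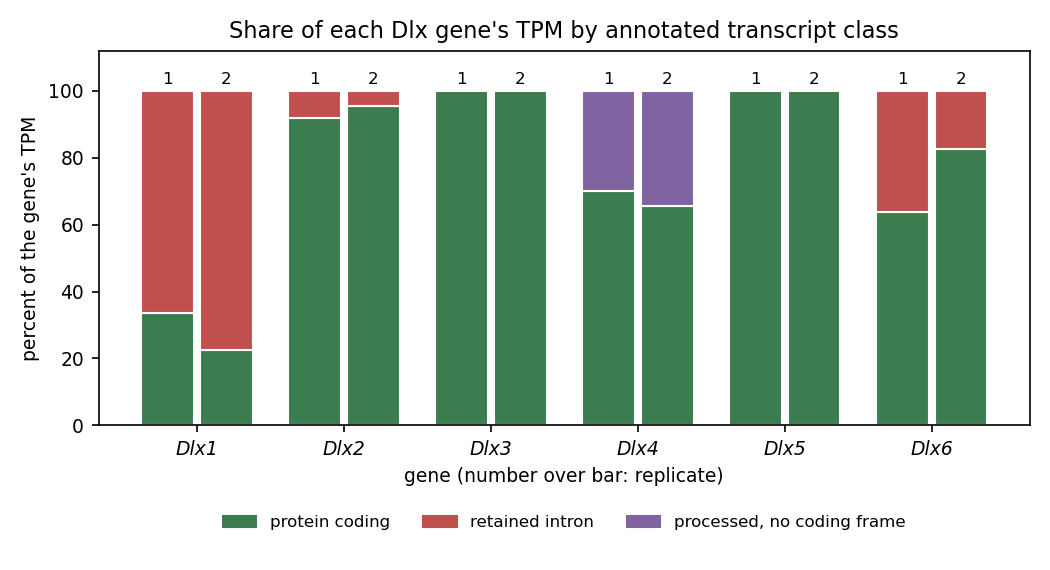
Share of each Dlx gene's TPM by annotated transcript class, in percent, with 1 bar for each replicate. Retained-intron forms fill 66.3% and 77.6% of the Dlx1 bars, under 10% of the Dlx2 bars and 36.3% and 17.4% of the Dlx6 bars. Dlx3 and Dlx5 are wholly protein coding.

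The other Dlx genes were simpler. Dlx3 has 1 transcript. Dlx5 has a pair of coding transcripts, and Dlx5-201 took 84.87% and 86.95% of the TPM. Dlx5-202 took 15.13% in replicate 1 (112.15 counts) and 13.05% in replicate 2 (124.10 counts), and lacks the first 82 bases of exon 2 (chromosome 6, 6879629 to 6879710, minus strand). The 82 bases are shown, since they separate the forms, with the 29 that belong to the homeobox in capitals.
Dlx5 exon 2, first 82 bases: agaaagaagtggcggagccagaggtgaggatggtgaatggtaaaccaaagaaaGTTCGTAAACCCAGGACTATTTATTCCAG
A length of 82 leaves a remainder of 1 when divided by 3, and the annotated coding sequence is 438 bases in Dlx5-202 against 867 in Dlx5-201. Dlx5-202 lacks 29 of the 180 homeobox bases, and the form with the whole homeobox stood at 26.04 and 26.49 TPM.

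Dlx4-201, the coding form of Dlx4, took 70.19% and 65.55%, and Dlx4-202, which has no coding frame and no homeobox bases, the rest. For Dlx6, Dlx6-202 had 42.13% and 44.85% and Dlx6-203 had 21.56% and 37.75%, on 12.35 and 19.61 counts. Both encode the whole homeobox. Over forms with the whole homeobox the levels were 1.75 and 1.59 TPM for Dlx4 and 1.90 and 1.73 TPM for Dlx6.

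Over both its forms, Dlx6os1 was at or above the level per length of Dlx6. Only Dlx6os1-201, at 1.64 and 1.53 TPM, spans Dlx6, and Dlx6os1-202 lies outside it. The ratio of Dlx6os1 to Dlx6 was 1.01 in replicate 1 (interval 0.771 to 1.33) and 1.31 in replicate 2 (interval 1.01 to 1.72), and 1.58 and 1.60 against the protein-coding forms of Dlx6 alone. Against Dlx5 it was 0.0981 and 0.0906. The exons of Dlx6os1 share 0 bases with those of Dlx6 or Dlx5, and the posterior SD of the count of Dlx6 was 0.

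Across 1485 antisense genes whose sense partner reached 1 TPM in both libraries, the median ratio was 0.0109, with quartiles of 0.00162 and 0.0415, and 24 genes (1.62%) exceeded 1. The partner was taken as the opposite-strand coding gene of which the RNA covers the largest part. Dlx6os1 lay at percentile 98.5 with 22 higher, and Dlx1as at percentile 95.8 with 61 higher. The 1485 genes were chosen by their sense partner, and only 11.6% of antisense genes reached 1 TPM in both libraries. An expressed antisense RNA thus ranks high here. By level among expressed antisense genes, Dlx6os1 stood at percentile 60.4 and Dlx1as at 74.6. Dlx6 was itself low, at percentile 9.46 of expressed coding genes. Without the Dlx1as form that shares exon bases with Dlx1, described further on, its ratio of 0.146 lay at percentile 89.97 with 148 higher.

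Dlx6os1 has a pair of annotated forms with different starts, and both were estimated in near-equal parts. The authors' intervals were wide, so near-equality is not settled. They were 0.813 to 2.36 and 0.908 to 2.05 TPM for Dlx6os1-201, and 0.658 to 2.11 and 0.686 to 1.77 TPM for Dlx6os1-202. Dlx6os1-201 took 54.54% and 55.57% of the TPM and Dlx6os1-202 took 45.46% and 44.43%. The annotated start of Dlx6os1-202 lies 92 bases after a RefSeq start of the gene, and the window around that start is shown as the start region of this form. It runs from 250 bases before to 50 after the RefSeq start on GRCm38.p6, minus strand. Capitals mark TAATTA, the core sequence that homeodomains bind, which reads the same on both strands.
Dlx6os1, chr6:6861634-6861933: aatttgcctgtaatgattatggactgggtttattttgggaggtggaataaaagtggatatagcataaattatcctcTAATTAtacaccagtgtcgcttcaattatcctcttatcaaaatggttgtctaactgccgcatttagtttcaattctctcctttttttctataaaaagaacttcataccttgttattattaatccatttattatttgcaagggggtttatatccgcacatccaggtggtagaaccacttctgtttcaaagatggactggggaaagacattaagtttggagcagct
The sequence TAATTA occurs 1 time in this window, and in 5.29% of all 32851 windows of 300 bases. Its GC content was 35.3%, against a median of 52.7% over all windows. The other RefSeq window of the gene lies 2059 bases inside Dlx6os1-201, not at the start of a measured form, and is not shown. The windows of Dlx1 and Dlx2, with a GC content of 69.3% and 66.3%, hold 0. Windows for 3 of the 8 members were found. A match describes letters only, and binding was not measured.

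For Dlx1as the strand matters. Its ratio to Dlx1 was 0.432 in replicate 1 (interval 0.322 to 0.580) and 0.278 in replicate 2 (interval 0.192 to 0.401), but 1.28 and 1.25 against the protein-coding forms of Dlx1 alone. Exons of Dlx1as share 335 bases with exons of Dlx1. The posterior SD of the count was 3.78 in both genes in replicate 1 and 3.67 in both in replicate 2, and their counts, which are not whole numbers alone, sum to 452 and 543. Reads over these bases were therefore divided between the genes without use of strand, and the RNAs cannot be told apart there. Across all pairs of genes on opposite strands that share at least 200 exon bases, with at least 50 counts, 84.8% and 85.6% had a posterior SD above 0 in both genes.

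The overlap is confined to 1 of the 4 Dlx1as forms, Dlx1as-202, which held 65.79% of its TPM in replicate 1 and 48.18% in replicate 2. Without it, Dlx1as stood at 1.8 TPM (16.22 counts) and 1.42 TPM (14.19 counts). Its ratio to Dlx1 was then 0.148 and 0.144. Dlx1as-202 has 647 bases, of which 335 are shared with Dlx1, so leaving it out also leaves out bases of Dlx1as alone. With so few counts, whether the libraries differ less without that form is not settled. Of the forms left, only Dlx1as-204 (3.22 and 5.19 counts) spans Dlx1, and Dlx1as-201 and Dlx1as-203 lie outside it.

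Other antisense annotations at these loci were lower or equally uneven. Dlx4os, which overlaps Dlx4, had 2.92 TPM (90 counts) in replicate 1 and 1.43 TPM (57 counts) in replicate 2. Dlx6os2, a further annotation across Dlx6, had 0.20 TPM (5 counts) and 0.09 TPM (3 counts).

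Between the libraries 7 of the 8 members differed by less than 1.5-fold. On the log2(TPM + 1) scale, which understates changes of low genes, replicate 2 minus replicate 1 was -0.74 for Dlx1as, -0.36 for Dlx6, -0.28 for Dlx1, -0.11 for Dlx2, -0.09 for Dlx6os1, -0.03 for Dlx4, -0.01 for Dlx5 and 0.22 for Dlx3. Of the 8 members 1, Dlx1as, was past 1.5-fold, lower in replicate 2, where 5.23% of 15715 genes with a mean of 1 TPM were past that fold in either direction. Over the forms that share no exon base with Dlx1, its value was -0.21, so that 0 members were then past the fold. Of the 281 antisense genes at that mean, 35 were past it.

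The scale has a shift of its own, and its total includes spike-ins, which had a larger share of counts in replicate 2. The median of all 15715 genes was -0.14, and the part of the spike-ins in it was not tested. In CPM, where that median was -0.03, the ratio of replicate 2 to replicate 1 was 0.512 for Dlx1as (interval 0.322 to 0.805), or 0.734 without the overlapping form (interval 0.332 to 1.60), and 1.27 for Dlx3 (interval 1.15 to 1.41). The intervals of the other 6 members included 1, from 0.862 for Dlx6 to 1.08 for Dlx5. Dlx3 was higher and Dlx6 and Dlx1as were lower in replicate 2 under each of 7 scalings, and the other 5 members changed sign between scalings. For Dlx1 the log2 value went from -0.28 in TPM to 0.10 in CPM, and the effective length that divides its count rose from 1660 to 2035 bases.

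**Figure D5:**
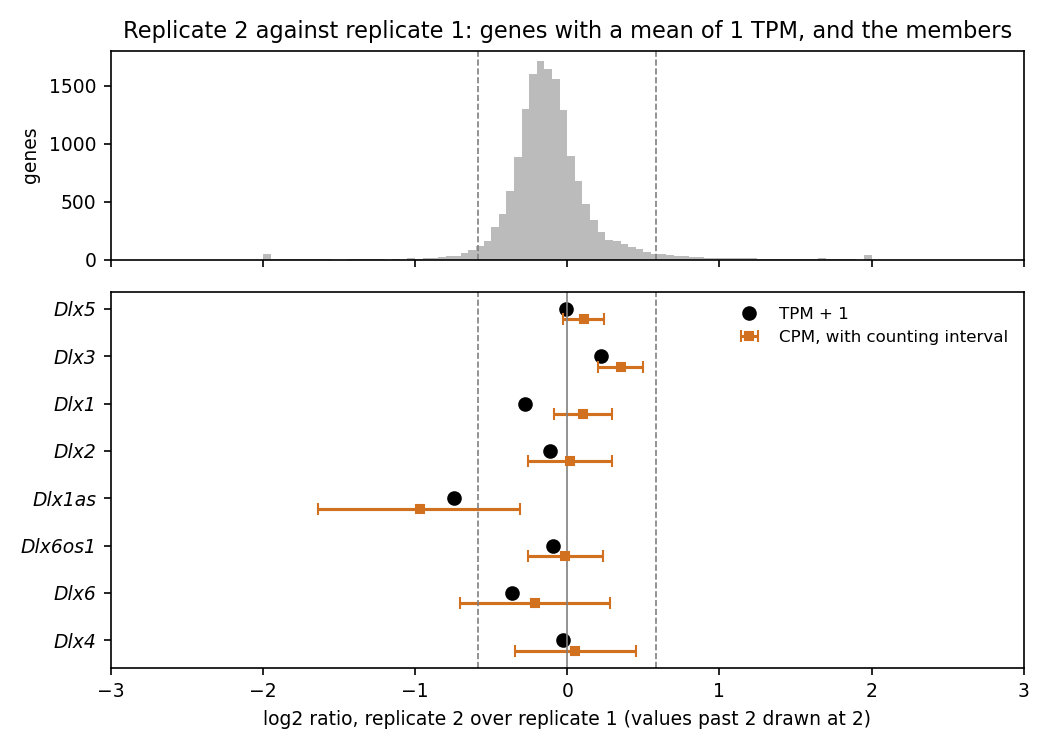
Upper panel, log2 ratio of TPM + 1 in replicate 2 over replicate 1 for 15715 genes with a mean of 1 TPM, as a count of genes. Lower panel, the same value for each member as a black circle and the ratio of CPM with its exact counting interval as an orange square, with dashed lines at 1.5-fold. Dlx1as, all forms counted, lies past the line on the left in both measures but not without the form that overlaps Dlx1 (-0.21 on the TPM scale), the CPM interval of Dlx3 lies wholly above 0, and Dlx1 changes side.

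Tissue markers also differed between the libraries. For comparison, 63.9% of all protein-coding genes were expressed in both, and 5.23% of genes with a mean of 1 TPM were past 1.5-fold. Osteoblast markers, all 10 at 1 TPM or more in both, summed to 3931 TPM in replicate 1 and 5116 TPM in replicate 2, with 3 past 1.5-fold upwards, Spp1, Bglap and Bglap2. Cartilage markers, all 8 expressed, summed to 696 and 399 TPM, with 4 past 1.5-fold downwards, among them Col2a1 and Matn1. Dlx5, which is known in osteoblasts, had 30.68 and 30.47 TPM alongside. Epidermis markers, 11 of 12 expressed, summed to 622 and 658 TPM. The differentiation genes Krt1, Krt10 and Lor were past 1.5-fold upwards and Gata3 and Grhl3 downwards, beside 13.06 and 15.36 TPM of Dlx3. The part of these tissues in the values of Dlx genes was not tested.

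Markers of facial mesenchyme, the main tissue of the prominences, were all 7 expressed, with sums of 331 and 289 TPM and Prrx1 at 79.5 TPM. The expressed share among all protein-coding genes was 63.9%. Forebrain interneuron markers, which would share Dlx1, Dlx2, Dlx5 and Dlx6, reached 1 TPM in both libraries for 5 of 14 genes, with sums of 28.2 and 21.9 TPM. Most of that sum came from Lhx8 at 10.8 and Lhx6 at 4.21 TPM, which jaw mesenchyme also expresses. The genes for making and loading GABA were low, with Gad1 at 0.26 and 0.07 TPM, Gad2 at 0.54 and 0.17 TPM and Slc32a1 at 0.04 and 0.06 TPM, and Gsx2 was at 0 in both. Olfactory lineage markers were expressed in 10 of 10 cases, with sums of 280 and 242 TPM and Gap43 highest at 114 TPM.

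Genes that act upstream of Dlx5 and Dlx6 in the lower jaw were present. All 7 listed genes of the endothelin pathway were expressed, with a median of 25.1 TPM. The G protein gene Gna11 had 69.1 ± 3.40 TPM, the transcription factor Mef2c 65.2 ± 2.38 and the endothelin-converting enzyme Ece1 46.7 ± 0.417. The ligand Edn1 was lowest at 1.92 ± 0.389 TPM. In this list 0 genes were past 1.5-fold between the libraries. Among all protein-coding genes 63.9% were expressed, and 5.23% of genes with a mean of 1 TPM were past that fold. A list this short cannot tell 0 from that share.

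Of 20 genes that work on Dlx mutant embryos places downstream in the arches, 17 were expressed in both libraries, with a median of 9.10 TPM. The zinc-finger gene Plagl1 had 314 ± 24.7 TPM, the signalling protein Wnt5a 50.2 ± 7.84 and the homeobox gene Barx1 25.6 ± 3.06, while Gbx2 had 0.23 ± 0.141. Of 8 genes for proteins known to bind Dlx proteins or Dlx6os1, 7 were expressed, with a median of 16.4 TPM. Maged1 led with 640 ± 88.3 TPM, followed by the homeodomain repressor Msx1 at 61.4 ± 8.08 and the chromatin remodeller Smarca4 at 60.1 ± 8.78, and Msx3 was near 0 at 0.015 TPM. In both lists 0 genes were past 1.5-fold. The shares over all genes were again 63.9% expressed and 5.23% past the fold, and lists this short cannot tell 0 from the latter.

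Among 46 other homeobox genes of the face, 42 were expressed in both libraries, against 63.9% of all protein-coding genes. The median of the 46 was 9.45 TPM, with Prrx1, Msx1 and Prrx2 highest and Hesx1 lowest at 0.10 TPM. Of these, 7 had a higher mean than Dlx5, 16 than Dlx3, 18 than Dlx1, 34 than Dlx2, 38 than Dlx6 and 39 than Dlx4. By the summed absolute difference in log2(TPM + 1) over the 2 libraries, the nearest genes were Lhx8 and Irx5 for Dlx1 and Lhx6 and Otx2 for Dlx2. They were Pou3f3 and Hmx1 for Dlx6, and Pou3f3 and Otx1 for Dlx4. This is a likeness of level only.

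The coding genes next to the pairs showed no common level. Of the 18 nearest, 3 on each side of each pair, 17 reached 1 TPM in both libraries, against 63.9% of all protein-coding genes. Beside Dlx1 lay Metap1d, a methionine aminopeptidase gene 2918 bases away, at 34.6 ± 2.28 TPM, with Hat1 at 78.2 and Slc25a12 at 32.3 beyond it. On the side of Dlx2 followed the integrin gene Itga6 at 54.5, Pdk1 at 45.7 and Rapgef4 at 2.17 TPM. Around Dlx6 and Dlx5 the levels were 206 TPM for the proteasome subunit gene Sem1, 12.5 for Slc25a13, 10.3 for Dync1i1, 4.60 for Sdhaf3, 13.9 for Tac1 and 54.1 for Asns. Around Dlx3 and Dlx4 they were 6.90 for Itga3, 30.9 for Pdk2, 20.1 for Samd14, 49.3 for Kat7 and 12.1 for Fam117a. The tachykinin gene Tac4, next to Dlx4, had 0.09 TPM in replicate 1 and 0 in replicate 2.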

How the data were processed

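Total RNA of embryonic facial prominence was measured in 2 libraries from 10.0 ng of RNA each, per the labels. The deposited tables of genes and of transcripts follow the layout of RSEM, on build mm10 with GENCODE M4, as the companion texts state. Aligner, quantifier version and strand setting: not given in the sources used here. Per the file headers, the expected counts are estimated reads with no depth scaling. The authors' TPM divides them by effective length and scales over all features. Deposited FPKM values served as an alternative. IsoPct is, per the file headers, the percent that a transcript takes of its gene. The deposited posterior SD, a score in reads, and the deposited TPM interval bounds, a signal in TPM, describe the estimates.

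Names, positions and transcript classes came from GENCODE M21, also on mm10, matched by Ensembl identifier. Of 23 member transcripts, 22 had equal lengths in both releases. The other, Dlx6os1-201, had 4248 bases as quantified and 4608 in M21. Expressed means 1 TPM or more. Counts were rounded for exact intervals (scipy 1.17.1). Size factors came from edgeR 4.0.16 and DESeq2 1.42.0, used for scaling only. Sequences were handled with Biopython 1.88. The fold rule and intervals were tested on simulated data. Spike-ins, 3.22% and 5.43% of counts, were not compared themselves. They are part of the total to which TPM is scaled, and not of the total used for CPM.

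The members and gene lists were chosen with earlier results of these data known, and the list of genes downstream of Dlx rests on general knowledge. Named genes were all members, the 3 highest and the lowest of each list, the 2 homeobox genes nearest in level to each Dlx gene, and 3 coding neighbours on each side of a pair. Gad1, Gad2, Slc32a1, and the markers past 1.5-fold, were named after their values were seen. Dlx transcripts were also sorted by whether they hold the whole homeobox, and Dlx1as was taken without its overlapping form, both chosen after seeing the data. Alternatives covered thresholds, units, scalings, transcript classes and leaving out each replicate. Proteins were not used here, and the genes nearest in level to Dlx3 and Dlx5 are not reported here.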

Additional observations from a re-analysis of the deposited data

How the results depend on the processing

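Of 51 alternatives for the main results, 36 stayed within the spread of the replicates or within 1.5 times a count, 13 moved and 2 reversed. Changes of sign in a log2 ratio between the libraries were counted as stayed or moved, not as reversed. The median log2 ratio of the members, counted as stayed, was -0.10 in TPM, -0.13 with a pseudocount of 0.1 and -0.04 in FPKM. It was positive with edgeR factors (0.07), DESeq2 factors (0.07), centring on the median gene (0.04) and CPM (0.04). Leaving out replicate 1 or replicate 2 moved none, which with 2 libraries follows for a mean from the use of 1 SD as the limit. The summed TPM of the 6 Dlx genes was 51.8 over main transcripts alone. With a fold of 2, 0 members were past it, and 0 were past 1.5-fold when Dlx1as was taken without the form that overlaps Dlx1, where Dlx1as over Dlx1 was 0.146. These counts come from a fixed rule on 2 libraries with no test, so no unadjusted p exists beside them. Over protein-coding transcripts only, Dlx1 over Dlx2 (0.763) and Dlx1as over Dlx1 (1.26) reversed, and the ratios became 16.9 for Dlx5 over Dlx6, 8.56 for Dlx3 over Dlx4 and 1.59 for Dlx6os1 over Dlx6. Over transcripts with the whole homeobox, chosen after seeing the data, Dlx1 over Dlx2 was 1.88. From expected counts without length, the ratios were 2.04 for Dlx1 over Dlx2, 7.42 for Dlx3 over Dlx4, 0.0992 for Dlx1as over Dlx1, 3.82 for Dlx6os1 over Dlx6 and 0.305 for Dlx6os1 over Dlx5. Of 140 alternatives for single genes, lists and backgrounds, 121 stayed and 19 moved. The share of genes past 1.5-fold was 2.99% with no filter, 2.50% at a mean of 5 TPM, 1.81% at a fold of 2 and 8.69% with a pseudocount of 0.1. No paired analysis was possible because the libraries form 1 group. Depth limits Dlx1as, Dlx6 and Dlx4 most, with 32.63 to 120 counts a library.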
